A study of Oryza sativa Japonica Group with 8 samples.

Results

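The genes described here are 10 upstream regulators of the cold response in rice (Oryza sativa Japonica Group): OsICE1 (Os11g0523700), OsICE2 (Os01g0928000), OsMYBS3 (Os10g0561400), OsMYB3R-2 (Os01g0841500), OsMYB4 (Os04g0517100), OsMYB2 (Os03g0315400), OsMYB30 (Os02g0624300), COLD1 (Os04g0600800), OsHOS1 (Os03g0737200) and OsMPK3/5 (Os03g0285800). They were taken by ID, not by a rule on expression, though earlier results of these data were known when they were chosen. All 10 were among the 38978 gene IDs counted and passed the filter on low counts that left 28218 IDs. The files carry IDs without names, and a RefSeq gene table named 6 of the 10, so that OsICE1, OsICE2, OsMYB30 and OsHOS1 are names given to their IDs from general knowledge of rice. Expression was measured by RNA-seq in the aerial parts of 10-day-old seedlings of 2 genotypes. The transgenic seedlings (T) carried Arabidopsis DREB1a under the cold- and dehydration-inducible RD29a promoter, stacked by Cre-lox integration with 4 marker genes (NPTII, GUS, GFP and pporRFP) in the Taipei-309 background. The controls (N) were the Cre-lox founder line T5, which the series refers to as wild type. Seedlings stayed at room temperature (RT) or were kept on ice for 20 h (cold shock, CS), which gives the groups N_RT, N_CS, T_RT and T_CS. RNA of 6 seedlings was pooled in each group, and every pool was sequenced as 2 libraries. The sample labels put homozygous lines 11, 20 and 29 in the T pool, picked for similar induction of AtDREB1a by cold. The study's methods list homozygous lines 11 and 29 or hemizygous lines, and do not say which were pooled for RNA-seq. The libraries are technical replicates, so each SE and adjusted p-value given here sets 1 pool against another and leaves out plant-to-plant variation.

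The cold response of plants is built around the CBF/DREB1 transcription factors, which switch on protective genes. ICE proteins are basic helix-loop-helix factors that, in Arabidopsis, bind the promoters of CBF genes and activate them. HOS1 is a ubiquitin ligase that, in Arabidopsis and rice, marks the ICE protein for degradation, and the rice kinase OsMPK3 phosphorylates ICE and protects it from that fate. COLD1 is a membrane protein of rice that acts with a G protein in sensing chilling and is tied to the calcium signal. Several MYB factors act beside ICE, either as activators (OsMYB4 and OsMYB2), as a link to the cell cycle (OsMYB3R-2) or as repressors (OsMYBS3 and OsMYB30). Much of the control of ICE acts on the protein, and the present data are transcript levels only.

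Total counts ranged from 18963211 to 24405824 per library, and between 31434 and 31984 IDs had a count. Levels are given as CPM, the count scaled to the size of its library, after TMM scaling, which corrects library size for a shift in composition, with replicate 1 first. The correlation of log2 CPM between the libraries of a pool, across genes, was between 0.988 and 0.992. A gene passed the test when its false discovery rate (FDR, the p-value of edgeR's quasi-likelihood test adjusted over the 28218 IDs by the Benjamini-Hochberg method) was 0.01 or less. "Rose" and "fell" are used only of changes that passed. CPM does not correct for gene length, so levels are compared between groups and not between genes. In bulk RNA, fewer cells of a type and less RNA per cell cannot be told apart.

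**Figure D1:**
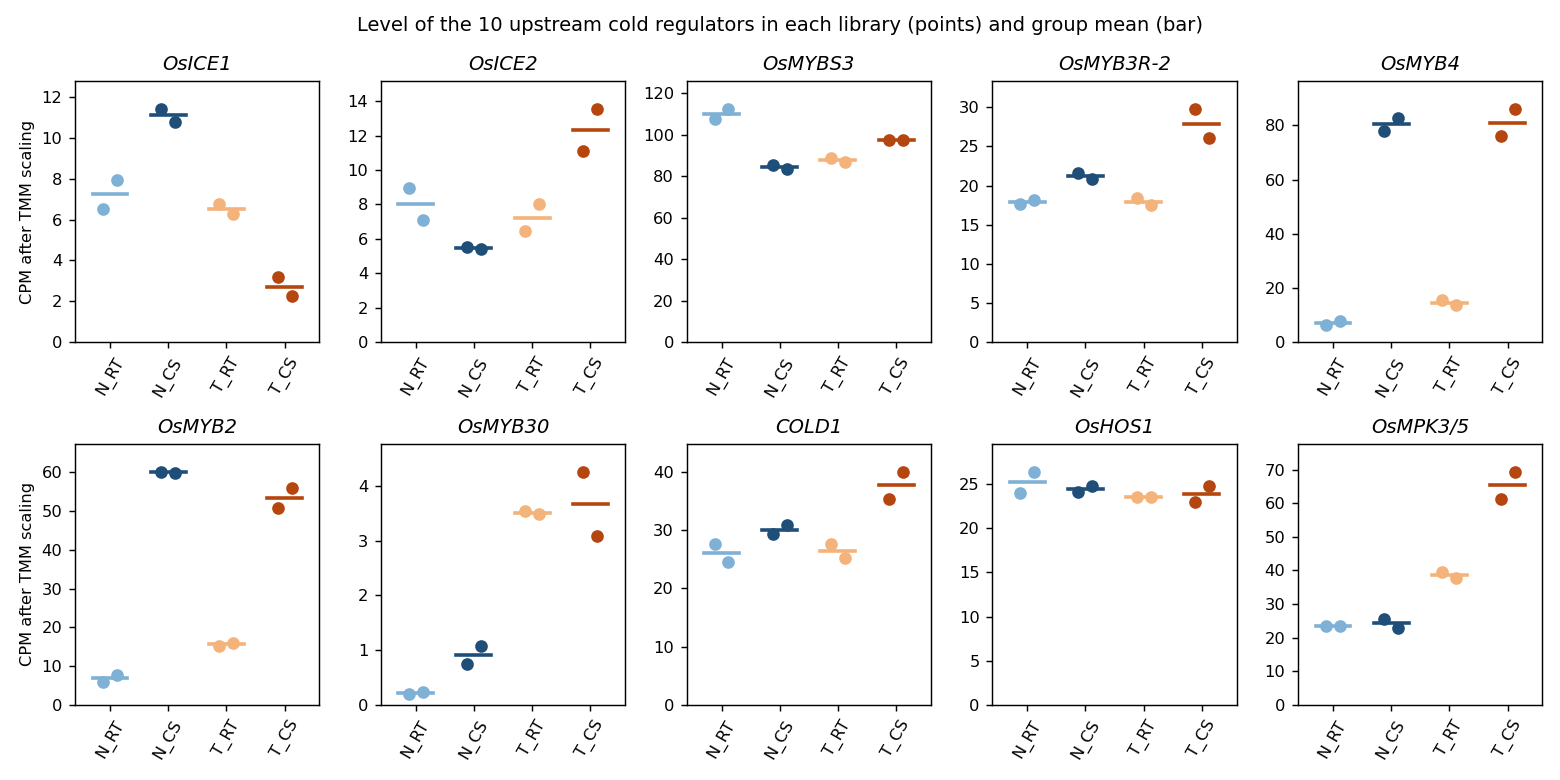
Level of each of the 10 regulators in CPM after TMM scaling (vertical axes, linear from 0) in N_RT, N_CS, T_RT and T_CS, with a point for each library and a bar at the mean of the 2 libraries. OsMYB4 and OsMYB2 were high in both cold pools, OsICE1 was lowest and OsICE2 highest in T_CS, and OsHOS1 stayed between 22.9 and 26.4 CPM.

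The 10 genes responded in distinct ways. In N, cold raised 4 of them (OsMYB4, OsMYB2, OsMYB30 and OsICE1) and lowered 2 (OsICE2 and OsMYBS3), against 19.7% of all tested IDs that rose and 21.1% that fell. In T, cold raised 7 (OsICE2, OsMYBS3, OsMYB3R-2, OsMYB4, OsMYB2, COLD1 and OsMPK3/5) and lowered OsICE1, against 26.2% of all IDs in each direction. The median log2 fold change of the 10 was 0.22 in N and 0.58 in T, where the medians of all IDs were 0.01 and -0.01. Only OsHOS1 passed the test in no comparison.

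OsICE1 and OsICE2, the ICE activators, went in opposite directions in cold, and their directions were exchanged between the genotypes. OsICE1 was at 6.53 and 7.92 CPM in N_RT, 11.4 and 10.8 CPM in N_CS, 6.75 and 6.27 CPM in T_RT, and 3.19 and 2.25 CPM in T_CS. Both N_CS libraries were thus above, and both T_CS libraries below, all other libraries. Cold raised OsICE1 in N by 0.63 on the log2 scale (SE 0.14, FDR 0.00015) and lowered it 2.37-fold in T (log2 fold change -1.25, SE 0.19, FDR 2.68e-08). The T_CS libraries held 63 and 40 counts of OsICE1, the lowest depth behind this gene. The rise in N was no longer past the threshold without N_RT replicate 1 (0.45, FDR 0.0358).

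OsICE2 was at 8.95 and 7.10 CPM in N_RT, 5.53 and 5.42 CPM in N_CS, 6.43 and 8.01 CPM in T_RT, and 11.1 and 13.5 CPM in T_CS. Its T_CS libraries were above and its N_CS libraries below all others, the mirror image of OsICE1. Cold lowered OsICE2 in N (log2 fold change -0.56, SE 0.15, FDR 0.00159) and raised it in T (0.76, SE 0.14, FDR 3.26e-06). The fall in N did not pass in DESeq2 (adjusted p = 0.0162), nor without N_RT replicate 1 (-0.41, FDR 0.0861), N_CS replicate 1 (-0.58, FDR 0.0121) or N_CS replicate 2 (-0.55, FDR 0.0118). The rise in T passed in every alternative fit.

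At room temperature the T and N pools were close for both ICE genes. The log2 difference of T_RT against N_RT was -0.14 for OsICE1 (95% interval -0.44 to 0.15, FDR 0.559) and -0.16 for OsICE2 (-0.44 to 0.13, FDR 0.487). In cold the pools stood far apart, with OsICE1 4.05-fold lower in T_CS than in N_CS (log2 fold change -2.02, SE 0.17, FDR 3.34e-16) and OsICE2 2.24-fold higher (1.17, SE 0.15, FDR 5.40e-10). The cold response of T minus that of N was -1.87 for OsICE1 (FDR 3.65e-10) and 1.32 for OsICE2 (FDR 1.96e-07). These last 4 values passed in every alternative fit. Over the 8 libraries, log2 CPM of the 2 genes had a Pearson r of -0.96, a description of points that share pools.

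OsMPK3/5, the kinase that phosphorylates the rice ICE protein, was higher in T at both temperatures and responded to cold in T. It was at 23.6 and 23.5 CPM in N_RT, 25.6 and 22.8 CPM in N_CS, 39.6 and 37.7 CPM in T_RT, and 61.2 and 69.4 CPM in T_CS. The N libraries of both temperatures overlapped, and every T library was above every N library. T exceeded N by 0.71 on the log2 scale at room temperature (SE 0.07, FDR 1.29e-12) and by 1.42 in cold (SE 0.07, FDR 9.42e-28), a 2.68-fold difference. Cold raised it 1.69-fold in T (log2 fold change 0.76, SE 0.07, FDR 2.77e-16), while in N the value was 0.04 (95% interval -0.11 to 0.20, FDR 0.676). The difference between these responses was 0.71 (SE 0.10, FDR 2.30e-08). The adjacent ID Os03g0285850, singled out after its values were seen, had between 0.265 and 0.361 times the counts of OsMPK3/5 in each library. Log2 counts of the 2 IDs, not scaled to library size, had a Pearson r of 0.97. Whether the IDs share reads was not resolved.

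OsHOS1, the ligase that acts against ICE, had nearly the same transcript level in all groups. Its libraries were at 24.02 and 26.4 CPM in N_RT, 24.1 and 24.8 CPM in N_CS, 23.51 and 23.51 CPM in T_RT, and 22.9 and 24.7 CPM in T_CS. The highest group mean was 1.07 times the lowest. The log2 fold change was -0.04 with cold in N (95% interval -0.20 to 0.12), 0.02 with cold in T (-0.15 to 0.18), -0.10 in T_RT versus N_RT (-0.26 to 0.06) and -0.04 in T_CS versus N_CS (-0.20 to 0.13). These intervals leave room for changes of up to 0.26 on the log2 scale between the pools, and FDR was between 0.446 and 0.867. The kinase and the ligase therefore differed in pattern, the former varying 2.77-fold between group means.

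COLD1, the chilling sensor, was highest in T_CS. It was at 27.6 and 24.5 CPM in N_RT, 29.3 and 30.9 CPM in N_CS, 27.6 and 25.1 CPM in T_RT, and 35.3 and 40.0 CPM in T_CS. Cold raised COLD1 in T 1.43-fold (log2 fold change 0.51, SE 0.08, FDR 3.79e-08). In N both cold libraries were above both room-temperature libraries, but the difference of 0.20 (SE 0.08, FDR 0.0287) did not pass. T_CS was above N_CS by 0.32 (SE 0.08, FDR 0.000314), which no longer passed without N_CS replicate 1 (0.27, FDR 0.0149) or without T_CS replicate 2 (0.23, FDR 0.0241). At room temperature the difference between T and N was 0.01 (95% interval -0.15 to 0.17, FDR 0.949). The cold response of T exceeded that of N by 0.31 (FDR 0.0183), short of the threshold, though it passed without N_RT replicate 2 (0.43, FDR 0.00336), without T_CS replicate 1 (0.41, FDR 0.00235) and with RLE size factors (FDR 0.00828).

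OsMYB4 and OsMYB2, MYB factors whose overexpression has been linked to cold tolerance, had the largest cold responses of the 10 genes in both genotypes. OsMYB4 was at 6.42 and 7.92 CPM in N_RT, 78.0 and 82.7 CPM in N_CS, 15.5 and 13.7 CPM in T_RT, and 76.1 and 86.0 CPM in T_CS. Its cold libraries did not overlap those at room temperature, and the T and N pools overlapped in cold only. OsMYB4 rose with cold 11.3-fold in N (log2 fold change 3.50, SE 0.08, FDR 1.69e-45) and 5.55-fold in T (2.47, SE 0.07, FDR 2.83e-40). It was 2.06-fold higher in T_RT than in N_RT (log2 fold change 1.04, SE 0.11, FDR 2.04e-12), and the difference in cold was 0.01 (95% interval -0.10 to 0.13, FDR 0.884).

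OsMYB2 was at 5.99 and 7.78 CPM in N_RT, 60.2 and 59.8 CPM in N_CS, 15.3 and 16.1 CPM in T_RT, and 50.9 and 56.0 CPM in T_CS. The order was as for OsMYB4 except that the T_CS libraries were below those of N_CS. OsMYB2 rose with cold 8.82-fold in N (log2 fold change 3.14, SE 0.09, FDR 4.59e-41) and 3.40-fold in T (1.77, SE 0.08, FDR 1.64e-30), and T_RT exceeded N_RT 2.31-fold (1.21, SE 0.11, FDR 7.14e-15). The difference in cold was -0.17 (SE 0.07, FDR 0.0289), which passed with total count scaling (-0.25, FDR 0.00131) and without T_CS replicate 2 (-0.24, FDR 0.0078).

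For both genes the cold response was smaller in T, by -1.03 for OsMYB4 (SE 0.12, FDR 9.59e-11) and by -1.37 for OsMYB2 (SE 0.13, FDR 7.85e-15). By arithmetic, each of these values is the T minus N difference in cold less that at room temperature. They therefore restate the higher starting level in T_RT and the small differences in cold given above. Over the 8 libraries the 2 genes had a Pearson r of 0.99.

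OsMYB30, which represses beta-amylase genes and lowers cold tolerance in rice, was the member with the largest difference between genotypes. It had few counts, with 5 and 5 counts in N_RT, 17 and 21 counts in N_CS, 78 and 86 counts in T_RT, and 84 and 55 counts in T_CS. Its level was 0.192 and 0.243 CPM in N_RT, 0.751 and 1.08 CPM in N_CS, 3.53 and 3.48 CPM in T_RT, and 4.26 and 3.09 CPM in T_CS. All T libraries were above all N libraries, and the T libraries of both temperatures overlapped. OsMYB30 was 15.9-fold higher in T_RT than in N_RT (log2 fold change 3.99, SE 0.39, FDR 1.38e-13) and 4.05-fold higher in T_CS than in N_CS (2.02, SE 0.30, FDR 3.98e-08). It rose with cold in N (2.05, SE 0.50, FDR 0.000408), whereas the value in T was 0.07 (95% interval -0.40 to 0.54, FDR 0.808). The difference between these responses was -1.98 (SE 0.56, FDR 0.00278).

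Both of the last 2 results on OsMYB30 rested on low counts in N. Without N_RT replicate 1 the rise in N was 1.84 (FDR 0.0155) and the difference between responses -1.77 (FDR 0.0352). Without N_CS replicate 2 they were 1.78 (FDR 0.0115) and -1.71 (FDR 0.0282). DESeq2 gave -1.98 for the difference (adjusted p = 0.0145). The differences between T and N passed at both temperatures in every alternative fit. The adjacent ID Os02g0624350, singled out after its values were seen, had between 0.371 and 0.636 times the counts of OsMYB30 in each library (194 against 351 in all). Log2 counts of the 2 IDs, not scaled to library size, had a Pearson r of 0.99. How reads that overlap several IDs were counted is not given in the sources used here, so reads shared by these IDs were not resolved.

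OsMYBS3, a MYB repressor of alpha-amylase genes that in rice also acts on the DREB1 pathway late in cold, had small but precisely measured changes. It was at 107.6 and 112.4 CPM in N_RT, 85.3 and 83.6 CPM in N_CS, 88.9 and 86.9 CPM in T_RT, and 97.6 and 97.7 CPM in T_CS. The N_RT libraries were the highest, and no pair of groups overlapped. OsMYBS3 fell with cold in N (log2 fold change -0.38, SE 0.04, FDR 3.96e-11) and was lower in T_RT than in N_RT (-0.32, SE 0.04, FDR 1.12e-08). It was higher in T_CS than in N_CS by 0.21 (SE 0.05, FDR 9.23e-05), and the cold response of T minus that of N was 0.53 (SE 0.06, FDR 8.63e-11).

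The rise of OsMYBS3 with cold in T was 0.15 (SE 0.05, FDR 0.00284). It did not pass without T_RT replicate 1 (0.17, FDR 0.0105), without T_RT replicate 2 (0.13, FDR 0.0455) or with total count scaling (0.04, FDR 0.499), which moved the median of all IDs in that comparison by -0.11. The difference in cold also missed the threshold with total count scaling (0.13, FDR 0.0125). The fall in N, the lower level in T_RT and the difference between responses passed in every alternative fit.

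OsMYB3R-2, a MYB that acts on cyclin genes and has been tied to cell division in cold, rose in T_CS. It was at 17.6 and 18.1 CPM in N_RT, 21.6 and 20.8 CPM in N_CS, 18.4 and 17.5 CPM in T_RT, and 29.8 and 26.1 CPM in T_CS. The room-temperature pools overlapped, N_CS was above them and T_CS was above N_CS. Cold raised OsMYB3R-2 in T 1.56-fold (log2 fold change 0.64, SE 0.09, FDR 3.69e-09), and the value in N was 0.25 (SE 0.09, FDR 0.0191). T_CS exceeded N_CS by 0.40 (SE 0.09, FDR 9.70e-05), which was 0.30 (FDR 0.0161) without T_CS replicate 1. The difference between T and N at room temperature was 0.01 (95% interval -0.17 to 0.19, FDR 0.975). The difference between the cold responses, 0.39 (SE 0.13, FDR 0.00933), lay at the threshold and did not pass in 11 of 16 alternative fits, among them the removal of every library in turn except T_CS replicate 2 (FDR up to 0.0892).

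The study also set a size of change, a log2 fold change of at least 2 upwards or -1 or less downwards. In N_CS versus N_RT, OsMYB4, OsMYB2 and OsMYB30 passed it upwards, against 0.890% of all IDs. OsMYB30 was close to the size there, at 2.05, and between 1.78 and 2.31 in the alternative fits. In T_CS versus T_RT, OsMYB4 passed it upwards (1.84% of all IDs) and OsICE1 downwards (11.0% of all IDs). The other changes of the 10 genes with cold were smaller than this size.

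**Figure D2:**
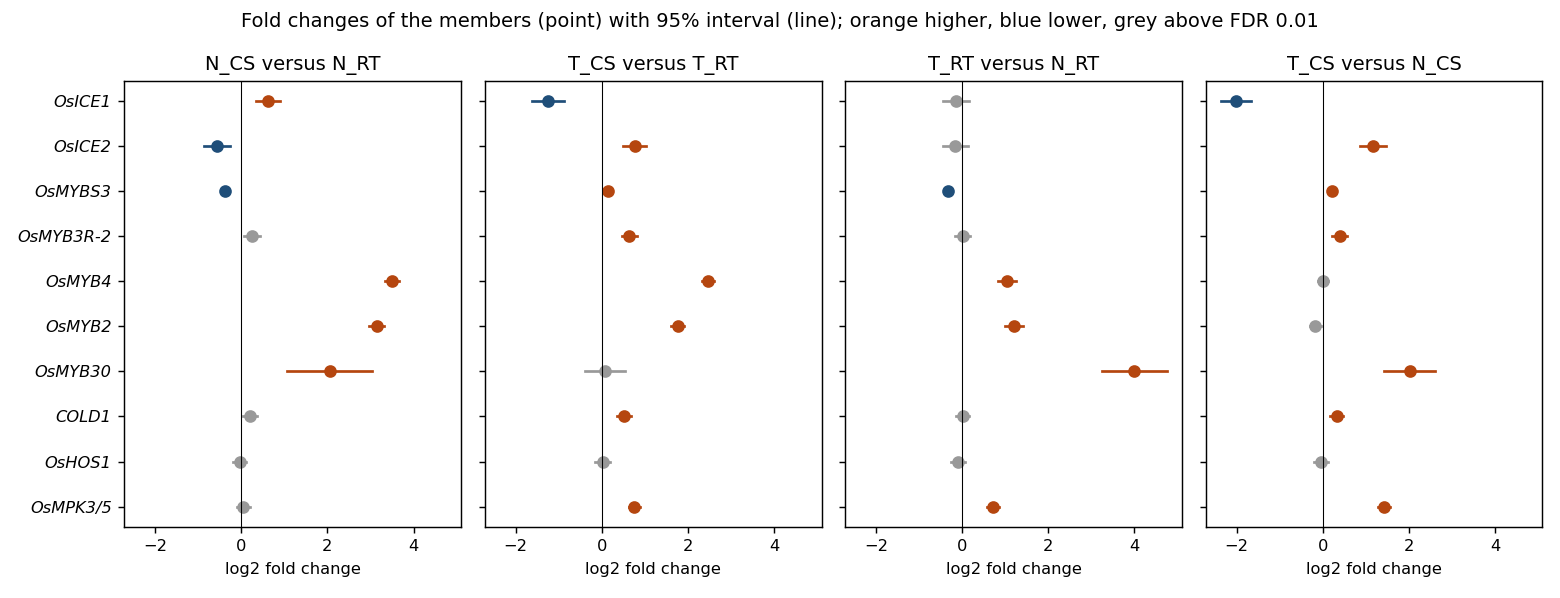
Log2 fold change of each of the 10 regulators (points) with its 95% interval (lines) in N_CS versus N_RT, T_CS versus T_RT, T_RT versus N_RT and T_CS versus N_CS, 1 panel a comparison, in orange where higher and blue where lower at an FDR of 0.01 or less and in grey otherwise. The values span -2.02 (OsICE1 in T_CS versus N_CS) to 3.99 (OsMYB30 in T_RT versus N_RT), and OsHOS1 lies near 0 in every panel.

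The comparison of the genotypes asks what the transgene's presence goes with before and after cold. At room temperature 4 of the 10 genes were higher in T (OsMYB30, OsMYB2, OsMYB4 and OsMPK3/5), against 9.44% of all IDs, and OsMYBS3 was lower, against 7.49%. OsMYB30 was the member past the study's size of change, which 0.553% of all IDs passed upwards. In cold 6 were higher in T (OsMYB30, OsMPK3/5, OsICE2, OsMYB3R-2, COLD1 and OsMYBS3), against 21.4%, and OsICE1 was lower, against 20.9%. OsMYB30 passed the size upwards (2.39% of all IDs) and OsICE1 downwards (4.92% of all IDs). OsMYB30 was close to the size in cold, at 2.02, and between 1.75 and 2.28 in the alternative fits. The median log2 fold change of the 10 was 0.01 at room temperature and 0.27 in cold, beside 0.00 and -0.05 for all IDs.

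**Figure D3:**
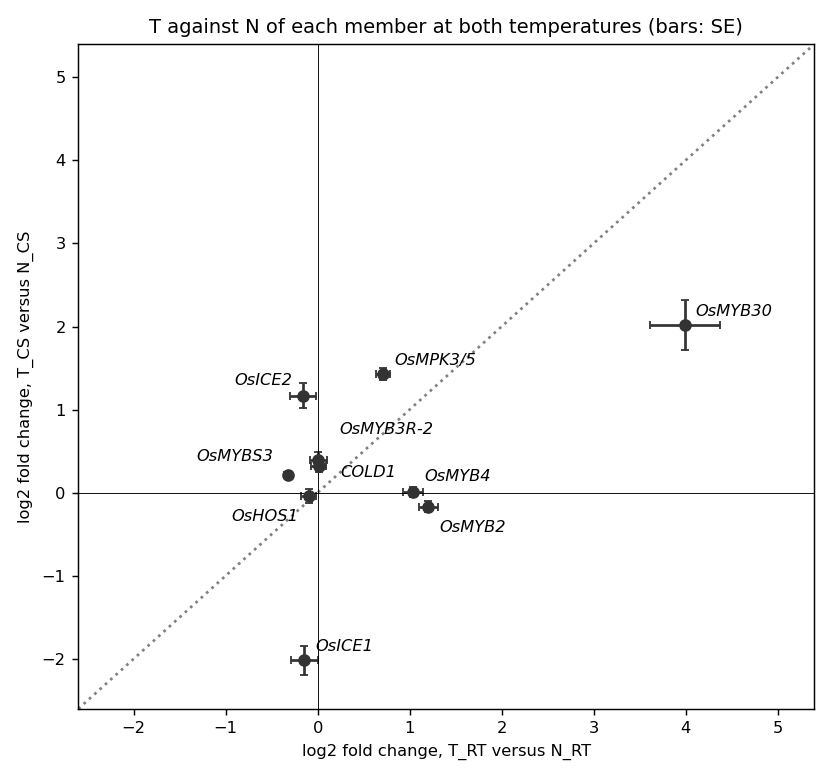
Log2 fold change of T against N at room temperature (horizontal axis) and in cold (vertical axis) for each of the 10 regulators, with SE bars, where the dotted line marks equal values. OsMYB4 and OsMYB2 lie to the right near the horizontal zero line, with 1.04 and 1.21 at room temperature, and the ICE genes lie near the vertical zero line at -2.02 and 1.17 in cold.

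OsMPK3/5 and OsMYB30 were higher in T at both temperatures. OsMYB4 and OsMYB2 passed at room temperature and not in cold. OsICE1, OsICE2, OsMYB3R-2 and COLD1 passed in cold and not at room temperature, and OsMYBS3 passed in both with opposite signs. The test of the difference between these effects is the same as that between the cold responses. It passed for 8 of the 10 genes, 4 with a more positive cold response in T (OsICE2, OsMYBS3, OsMYB3R-2 and OsMPK3/5), against 17.0% of all IDs, and 4 with a more positive response in N (OsICE1, OsMYB4, OsMYB2 and OsMYB30), against 15.6%. COLD1 and OsHOS1 did not pass it.

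**Figure D4:**
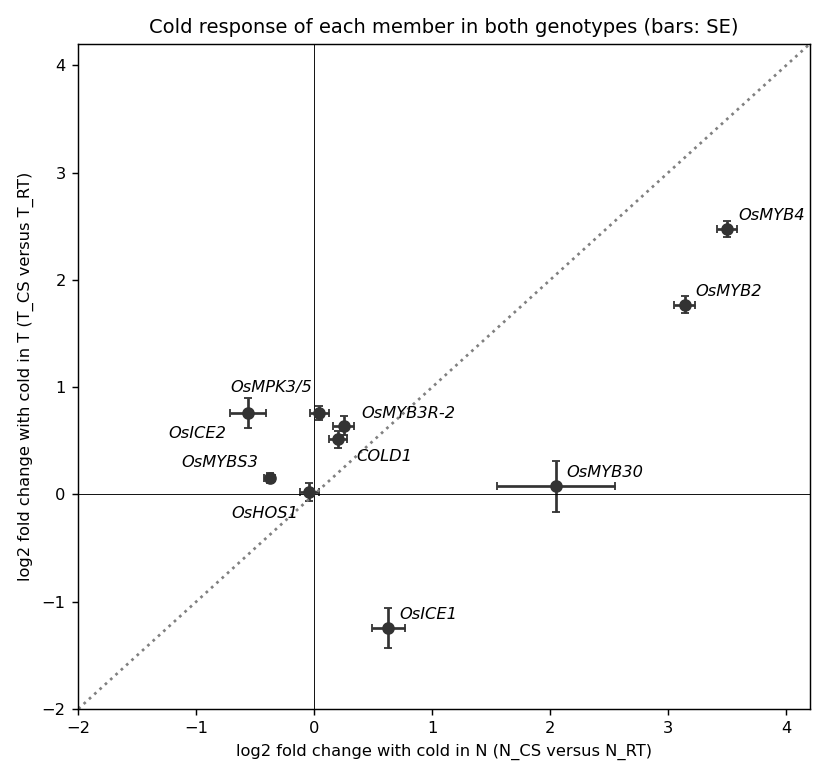
Log2 fold change with cold in N (horizontal axis) and in T (vertical axis) for each of the 10 regulators, with SE bars, where the dotted line marks equal responses. OsMYB4, OsMYB2, OsMYB30 and OsICE1 lie below the line (OsICE1 at 0.63 in N and -1.25 in T), and OsICE2 and OsMYBS3 lie at negative values in N and positive values in T.

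The order of the group means placed T_CS highest for OsICE2, OsMYB3R-2, OsMYB4, OsMYB30, COLD1 and OsMPK3/5, N_CS highest for OsICE1 and OsMYB2, and N_RT highest for OsMYBS3 and OsHOS1. Of the 30 pairs of neighbours in these orders, 15 differed with an FDR of 0.01 or less. The share over all IDs was not computed, and the pairs were set by the same group means that were tested. For OsICE1 the middle pair, N_RT and T_RT, did not differ beyond the spread (FDR 0.559). OsICE2 had T_CS apart from N_RT (FDR 0.000131), while N_RT and T_RT (FDR 0.487) and T_RT and N_CS (FDR 0.025) did not pass. In OsMYBS3, T_RT and N_CS did not differ beyond the spread (FDR 0.301). For OsMYB4 and OsMYB2 the cold pools were the pair that did not pass, and for OsMYB30 it was the T pools. OsMYB3R-2 and COLD1 had T_CS apart from the rest, whose neighbours did not pass (FDR 0.0211 or more).

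Each gene was also compared with 47 of the genes that the study names by ID, which are not all of them. Likeness was Pearson r of log2 CPM over the 8 libraries, a description in which libraries of a pool are not independent. The study picked most of the 47 from results on these samples. Of the 47, 44 were higher and 1 was lower in T_CS than in N_CS (21.4% and 20.9% of all IDs). A high r with many of these genes therefore lends no independent support. The share of all IDs with such an r was not computed. OsMYB4 was most like OsDREB1G (r = 0.81) and OsMYB2 most like OsDREB1C (r = 0.83), both members of the DREB1 family. OsICE2 was most like OsJAZ1 (r = 0.95) and OsMYB3R-2 most like OsJAZ2 (r = 0.91), which encode jasmonate repressors. The likeness was shared by other genes, since 11 of the 47 had an r over 0.9 with OsICE2, 3 with OsMYB3R-2, 2 with OsMYB30 and 22 with OsMPK3/5. COLD1 was most like OsLOX2 (r = 0.89), a lipoxygenase of the jasmonate pathway. The closest to OsMYB30 was OsERF109b (r = 0.97), and the closest to OsMPK3/5 was bHLH148-like (r = 0.98). OsICE1 was most like the heat-shock factor OsHsfB2b (r = 0.81), the 1 that was lower in T_CS than in N_CS. OsMYBS3 was most like OsGH3-8 (r = 0.60). For OsHOS1 none of the 47 came above r = 0.27. OsICE1 and OsMPK3/5 had an r of -0.91.

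The DREB1 genes stand below ICE in the pathway, while OsMYB3R-2 and OsMYB30 are described above by other targets. The study names 3 DREB1 genes by ID, and since it picked them from results on these samples, their directions lend no independent support. All 3 rose with cold in N (19.7% of all IDs rose), and 2 rose in T (26.2%). OsDREB1A (Os09g0522200) was at 63.7 and 59.3 CPM in N_RT, 95.3 and 101.7 CPM in N_CS, 19.2 and 20.9 CPM in T_RT, and 95.5 and 89.7 CPM in T_CS. It was thus lowest in T_RT, 3.07-fold below N_RT (log2 fold change -1.62, FDR 1.60e-32), where OsMYB4 and OsMYB2 were above N_RT. OsDREB1C (Os06g0127100) was at 0.576 and 0.486 CPM in N_RT, 8.18 and 8.62 CPM in N_CS, 7.79 and 8.46 CPM in T_RT, and 11.3 and 9.84 CPM in T_CS. OsDREB1G (Os02g0677300) was at 1.04 and 1.51 CPM in N_RT, 7.38 and 10.5 CPM in N_CS, 9.51 and 8.74 CPM in T_RT, and 33.2 and 35.8 CPM in T_CS. OsDREB1C and OsDREB1G were higher in T_RT than in N_RT (log2 fold changes 3.91 and 2.86, FDR 7.95e-23 and 2.55e-20), and OsDREB1G was also higher in T_CS than in N_CS (1.96, FDR 5.57e-24), where the other 2 did not pass (FDR 0.145 and 0.0416).

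Calcium and kinase genes carry the early cold signal that COLD1 and OsMPK3/5 belong to. A set of 4 was taken from those that the study names by ID. They were also chosen on these samples, and other kinases that the study names were left out of the set. All 4 rose with cold in T, where 26.2% of all IDs rose, and all were higher in T_CS than in N_CS, as were 21.4% of all IDs. With cold in N, 0 rose and 1 fell (19.7% and 21.1% of all IDs). In T_RT 2 were higher than in N_RT (9.44% of all IDs). OsCAM1 (Os03g0319300), a calmodulin, was at 87.3 and 86.0 CPM in N_RT, 61.1 and 64.0 CPM in N_CS, 109.9 and 116.6 CPM in T_RT, and 244.8 and 266.0 CPM in T_CS. It fell with cold in N (log2 fold change -0.47, FDR 2.69e-13) and rose in T (1.17, FDR 2.66e-36), and like OsMPK3/5 it was higher in T at room temperature (0.39, FDR 5.41e-11). The calcium-dependent protein kinase gene Os08g0540400 was at 12.6 and 11.6 CPM in T_CS and between 0.486 and 1.42 CPM in the other 6 libraries. The other 2 genes, the MAP kinase kinase kinase gene Os05g0545300 and the receptor-like kinase gene OsRLCK253a (Os08g0374600), had 32 and 32 and 399 and 364 counts in T_CS and at most 5 in N_CS. Os05g0545300 had 2 and 3 counts in N_RT and 12 and 8 in T_RT. OsRLCK253a had 13 and 10 counts in N_RT and 35 and 40 in T_RT. The rise of Os05g0545300 with cold in T did not pass without T_RT replicate 2 (FDR 0.0215).

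Further genes of the pathway were listed by ID as known in the field, but neither the files nor the gene table name those IDs, so they are given as counts only. Of 6 IDs for partners of ICE and COLD1 (kinases, G protein and related genes), cold in N raised 1 and lowered 3 (19.7% and 21.1% of all IDs), and cold in T raised 5 and lowered 1 (26.2% of all IDs in each direction). The same list had no member higher and 1 lower in T_RT versus N_RT (9.44% and 7.49% of all IDs), and 5 higher and none lower in T_CS versus N_CS (21.4% and 20.9% of all IDs), with medians of 0.03 and 0.67 on the log2 scale. The cold response was more positive in T for all 6, as for 17.0% of all IDs. Of 7 IDs for putative targets, 6 were tested, and cold raised 3 and lowered 1 in N, and raised 2 and lowered 2 in T, beside the same shares of all IDs. At room temperature 2 of them were higher and 1 lower in T than in N (9.44% and 7.49% of all IDs), with a median of 0.45. In cold 2 were higher and 3 lower in T (21.4% and 20.9% of all IDs), with a median of -0.78. Both lists were chosen by hand, and no test of either list was made.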

How the data were processed

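RNA-seq was measured in 8 libraries, 2 from each of 4 RNA pools. Per the labels, the authors trimmed reads with Trimmomatic, aligned them to IRGSP-1.0 (STAR) and assigned them to gene IDs with featureCounts 1.6.4, and the deposited values are raw counts. The study's methods speak of normalized counts, but the values are whole numbers with totals that differ between libraries. Strand and multi-mapping settings are not given in the sources used here.

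Tests used edgeR 4.0.16 in R 4.3.3 (quasi-likelihood, 1 mean per group, TMM). The filterByExpr step used minimums of 10 counts per library and 15 in all. FDR was taken over all 28218 tested IDs, the median SE in T_CS versus N_CS was 0.133, and 95% intervals come from the SE. Alternative fits were DESeq2 1.42.0, RLE and total count scaling, TMM without the 10 most abundant genes, other filters, a likelihood ratio test, the 4 libraries of a comparison alone, the replicate number as a block and leaving out each library. An FDR of 0.05 and the fold sizes were alternative thresholds. The steps were tested on simulated data.

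The members and lists were chosen with earlier results of these data known. Named were all 10 genes, for each of them the gene with the highest r among the 47 compared, and 7 of the IDs that the study gives. The 7 are DREB1, calcium and kinase genes. The RefSeq gene table, of another assembly, held 6 of the 10 members by synonym and was not used for positions. The other 4 names come from general knowledge, and neither the files nor the study pair them with these IDs. The same table gives MYB30 as a synonym of the gene called OsMYBS3 here, so OsMYB30 refers only to Os02g0624300. Sequences, the AtDREB1a transcript and tissue markers were not analysed here, and replicate libraries differed by more than sampling noise.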

Additional observations from a re-analysis of the deposited data

Results flagged for a closer look

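The cold response differed between T and N by edgeR's test of the difference itself for 8 of the 10 genes, against 32.7% of all IDs. On the log2 scale, T minus N, the differences were -1.87 for OsICE1, 1.32 for OsICE2, 0.53 for OsMYBS3, 0.39 for OsMYB3R-2, -1.03 for OsMYB4, -1.37 for OsMYB2, -1.98 for OsMYB30 and 0.71 for OsMPK3/5. OsICE1, OsICE2 and OsMYBS3 changed in opposite directions in the 2 genotypes, but 1 of the directions of each did not pass in some alternative fits: OsICE1 in N without N_RT replicate 1 (0.45, FDR 0.0358), OsICE2 in N in 4 fits (FDR up to 0.0861) and OsMYBS3 in T in 3 fits (FDR up to 0.499). The differences of OsMYB3R-2 and OsMYB30 depended on single libraries, and each genotype and temperature was 1 pool, so differences between pools and between genotypes cannot be told apart.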

How the results depend on the processing

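Of the 50 tests of the 10 genes, 31 kept their direction and their side of the threshold in every alternative fit. The fold sizes left 0 genes lower in N_CS versus N_RT (5.84% of all IDs) and 1 higher in T_CS versus T_RT (1.84%). They left 1 higher and 0 lower in T_RT versus N_RT (0.553% and 0.454%), and 1 higher in T_CS versus N_CS (2.39%). At these sizes 0 had a more positive cold response in T (1.75% of all IDs) and 4 a more negative one (5.55%). DESeq2 gave 1 gene lower in N_CS versus N_RT, and both total count scaling and an FDR of 0.05 gave 2 lower in T_CS versus N_CS. Leaving out 1 library gave 2 to 4 genes higher and 1 to 2 lower in N_CS versus N_RT, 1 to 2 lower in T_CS versus N_CS, and 13 to 14 neighbour pairs that passed, against 15. The cause was not tested.

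Every change of sign was in a log2 fold change that did not pass. With total count scaling these values were -0.066 for OsMYB3R-2 and -0.062 for COLD1 in T_RT versus N_RT, -0.065 for OsMYB4 in T_CS versus N_CS, -0.042 for OsMYB30 and -0.10 for OsHOS1 in T_CS versus T_RT and -0.066 for OsMPK3/5 in N_CS versus N_RT. OsMYB3R-2 in T_RT versus N_RT was -0.00072 with RLE and -0.00086 with DESeq2. Leaving out 1 library gave -0.33 to 0.033 for OsICE2, -0.029 to 0.037 for OsMYB3R-2 and -0.067 to 0.11 for COLD1 in T_RT versus N_RT, -0.18 to 0.28 for OsMYB30 and -0.034 to 0.074 for OsHOS1 in T_CS versus T_RT, -0.076 to 0.10 for OsMYB4 and -0.088 to 0.020 for OsHOS1 in T_CS versus N_CS, and -0.045 to 0.12 for OsMPK3/5 in N_CS versus N_RT. The calcium-dependent protein kinase gene (CDPK) ranged from -1.07 to 0.47 in N_CS versus N_RT and from -0.84 to 0.70 in T_RT versus N_RT.

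Over all IDs, total count scaling gave 32.9% higher among calls in N_CS versus N_RT (48.3% with TMM), 39.4% in T_CS versus T_RT (50.0%) and 35.8% in T_RT versus N_RT (55.8%). IDs higher in N_CS versus N_RT numbered 5558, but 3685 with total count scaling and 3686 without N_RT replicate 1. In T_RT versus N_RT 2665 were higher (1734 in DESeq2) and 2114 lower (3576 with total count scaling, 1260 in DESeq2 and 1327 to 1392 without 1 of its libraries), and 4410 had a more negative cold response in T (2847 in DESeq2).

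Replicate numbers did not pair the libraries (correlations of deviations -0.069 to 0.036). With the replicate block, 3 genes had a more positive cold response in T, since OsMYB3R-2 (0.39, FDR 0.011) no longer passed.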
